A study of Mus musculus with 2 samples.

Results

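Dense peak domains are places where the deposited peaks of a PHF19 ChIP-seq library follow each other closely along a chromosome. They were chosen by the positions of the authors' peaks: peaks on 1 chromosome were joined where the gap between them was at most 10 kb, stretches of 5 or more peaks were kept, and peaks in 4 windows around the Hox clusters were left out. This gave 301 of the 3445 deposited peaks (8.74%), in 49 domains on 16 chromosomes. In all, 55 stretches had 5 or more peaks, and 110 of their peaks were left out with the Hox windows. Of the 49 domains, 48 are whole stretches. The remaining one, chr11:95988918-95995652, is cut by the window on chromosome 11 and keeps 3 of its 7 peaks. Because the peaks were called on the same ChIP reads, their enrichment over input is a description and was not tested.

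The study compared 2 libraries of genomic DNA from E14 mouse embryonic stem cells, a pluripotent line grown on gelatin in medium with LIF. The first library was DNA recovered with a rabbit polyclonal antibody raised against PHF19, and the second was input DNA without immunoprecipitation. There was 1 library of each, from 1 cell line, so values carry no replicate error. Intervals in parentheses are exact 95% intervals and cover counting error only. No library tested the specificity of the antibody, so the values show what the antibody recovered. The ChIP library held 21957101 distinct reads and the input 24496988. All coordinates refer to mm8, and a gene annotation of that build was not used here. Whether a domain lies in a gene, an exon, an intron or a UTR was therefore not determined.

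PHF19 is a Polycomb-like protein, an accessory subunit of the Polycomb repressive complex PRC2. PRC2 methylates histone H3 at lysine 27, and the mark is found with silent genes. PHF19 carries a Tudor domain that binds histone H3 methylated at lysine 36, a mark of transcribed gene bodies. In embryonic stem cells PRC2 is known for occupying CpG-rich DNA at genes for developmental regulators, among them the homeobox genes of the Hox clusters. Where several such elements lie side by side, Polycomb proteins can cover long stretches rather than single sites. The sequences of the domains are not shown, because a genome of the mm8 build was not used here.

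In the 49 domains, PHF19 ChIP reads were enriched over input in the peaks and, to a lesser degree, in the DNA between the peaks, and a smaller enrichment reached several kilobases past the outer peaks. The fold is the ChIP share of distinct reads divided by the input share over the same bases. Peaks of the domains held 26270 ChIP and 7049 input reads, a joint fold of 4.16 (4.05 to 4.27). The gaps between them held 7150 ChIP and 4024 input reads, a joint fold of 1.98 (1.91 to 2.06). In the 50 kb on each side, outside peaks, the fold was 1.09 (1.08 to 1.11), and its interval lay above 1 in 25 of the 49 domains. The same count over all stretches is not given here. Such enrichment was not particular to the domains, where it was 1.25 (1.19 to 1.31) at 2 to 5 kb. At that distance it was 1.40 (1.27 to 1.55) next to peaks of the Hox windows. It was 1.17 (1.15 to 1.19) outside stretches of 2 to 4 peaks and 1.10 (1.09 to 1.11) around single peaks. Input itself was higher than around the domain in chr1 d and chr4 b, and without these the joint fold was 4.56 in peaks and 2.01 in gaps. Each domain is named here by its chromosome and its order along it, so that chr7 a is the first domain on chromosome 7.

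By size, the domains ran from 6.74 kb for the cut one to 50.6 kb, with a median of 17.9 kb and quartiles of 14.3 and 22.9 kb. Of the 49, 25 held exactly 5 peaks, and the largest held 14. Together they spanned 980.7 kb, of which peaks covered 577.4 kb. Peaks covered between 27.9% and 94.1% of a domain (median 60.6%). A member peak was 598 to 10466 bp wide, and it held 18 to 487 ChIP reads (median 66) and 2 to 256 input reads (median 17).

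**Figure D1:**
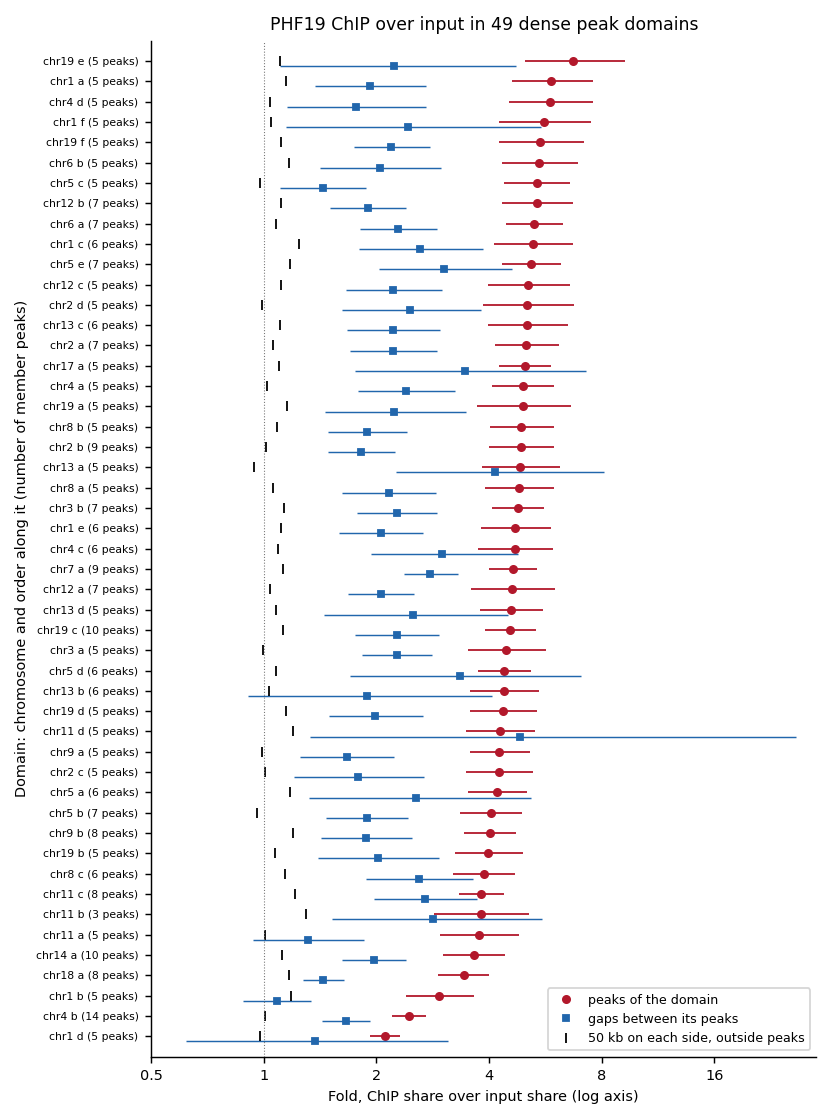
Fold of the PHF19 ChIP library over input (log axis) in each of the 49 domains, ordered by the joint fold of the peaks. Circles are peaks and squares are gaps between them, with exact 95% intervals for counting error, and ticks are the 50 kb on each side outside peaks. Peaks lie between 2.11 and 6.72, gaps between 1.09 and 4.83, and flanks between 0.941 and 1.30.

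The joint fold of the peaks of a domain lay between 2.11 and 6.72, with a median of 4.69 and quartiles of 4.21 and 5.06. It was 4 or more in 39 domains and below 3 in 3 of them. The same counts over all stretches are not given here, so nothing is read from them. Stretches of 3 and of 4 peaks also had median folds above 4, at 4.31 and 4.39. Among the domains, the highest joint fold belonged to chr19 e (chr19:59218028-59225932), a compact domain of 5 peaks over 7.90 kb. It had 307 ChIP and 51 input reads, giving a fold of 6.72 (4.98 to 9.22). The fourth of its peaks, 2147 bp wide, held 148 of these ChIP reads against 17 in the input, a fold of 9.71 (5.86 to 17.1), and the other 4 peaks ranged from 4.57 to 6.69. In chr1 a (chr1:42628539-42644063), with 410 ChIP and 78 input reads, the fold was 5.86 (4.59 to 7.57), and its 5 peaks ranged only from 5.07 to 6.85. The last 3 of them were only 86 and 70 bp apart, and the gap of 5922 bp before them had a fold of 1.87 (1.32 to 2.68).

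The other 3 domains of 5 peaks completed the upper end. In chr4 d (chr4:114550122-114562311) 376 ChIP reads stood against 72 in the input, a fold of 5.83 (4.52 to 7.61). The domain chr1 f (chr1:191869232-191876813) had 311 against 62 reads, a fold of 5.60 (4.25 to 7.47). It was the shortest whole domain at 7.58 kb, with all gaps at 431 bp or less. Last, chr19 f (chr19:59503866-59522747) had 354 against 72 reads, a fold of 5.49 (4.25 to 7.17). The intervals of these 5 domains overlapped each other, so their order is not resolved by these counts.

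Most peaks were found in chr4 b (chr4:88227888-88278499), with 14 peaks over 50.6 kb. In its peaks 1161 ChIP reads stood against 530 in the input, a fold of 2.44 (2.20 to 2.71). Its peaks were of similar height: the strongest held 12% of the ChIP reads in peaks, the lowest such share of all domains, and the folds ranged from 1.69 to 4.02. The peak at its left edge reached 4.02 (1.95 to 9.07) with 36 ChIP and 10 input reads. The longest gap, 8860 bp, was at 1.35 (1.0 to 1.82). In this domain the input was also raised, as given below.

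In chr19 c (chr19:44787484-44815401), 10 peaks over 27.9 kb held 827 ChIP against 203 input reads, or a fold of 4.55 (3.89 to 5.33). Its 2 widest peaks, 3079 and 3599 bp, lay side by side at the right end with 163 and 188 ChIP reads, and folds of 4.79 (3.34 to 7.0) and 4.46 (3.23 to 6.28). The remaining 8 peaks were 1078 to 1776 bp wide. The highest fold, 8.26 (3.24 to 26.9), was that of a 1202 bp peak with 37 ChIP and 5 input reads. By contrast, chr14 a (chr14:121598328-121626279) held as many peaks over the same length with fewer ChIP reads, 467 against 143 in the input, a fold of 3.64 (3.01 to 4.43). One peak of 2499 bp in its middle held 127 of these reads, and 5 of its 10 peaks held 34 or fewer.

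The domain chr7 a (chr7:70198756-70244356) was the third longest of the 49, with 9 peaks over 45.6 kb. Its peaks had 930 ChIP against 224 input reads, or a fold of 4.63 (4.0 to 5.38). Its strongest peak, 5469 bp wide, held 265 against 50 reads, a fold of 5.91 (4.36 to 8.17). A single weak peak of 1399 bp stood inside it at 1.95 (1.20 to 3.23), with 28 input reads. Between its peaks 510 ChIP reads stood against 204 in the input, a fold of 2.79 (2.37 to 3.30). One of these gaps, 6592 bp long, reached 3.85 (2.66 to 5.67) without being part of a peak.

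**Figure D2:**
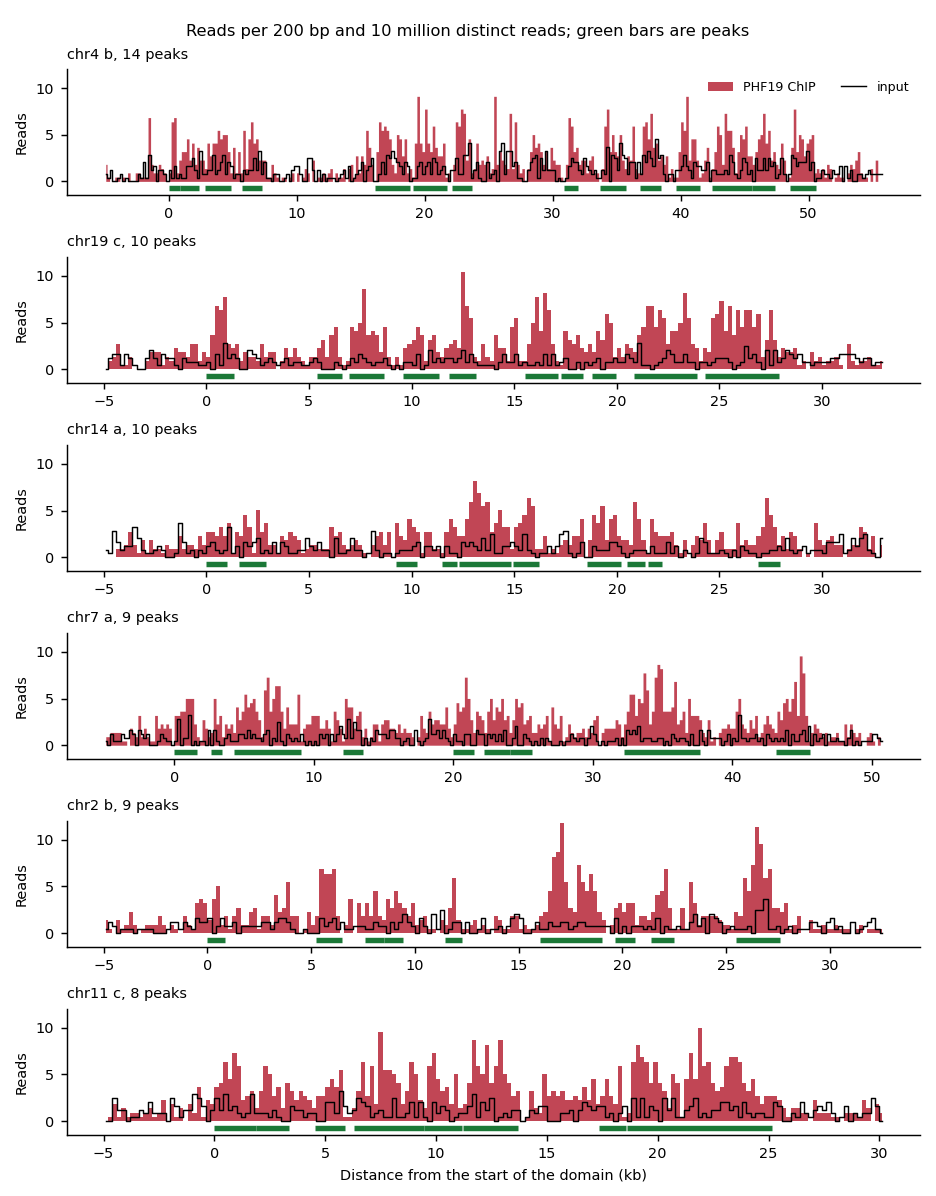
Distinct reads per 200 bp, scaled to equal depth of the libraries, along 6 of the 8 domains with 8 or more peaks and 5 kb on each side; of the 3 with 8 peaks, the one with the most ChIP reads is drawn. Filled bars are the PHF19 ChIP library, the line is input, and green bars mark the deposited peaks. The domain chr4 b, at a fold of 2.44 in peaks, has the highest input relative to its flanks, and the other 5 drawn have folds of 3.64 to 4.87.

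Including chr4 b, chr19 c, chr14 a and chr7 a, 8 domains held 8 or more peaks. Of the others, chr2 b (chr2:18590148-18617726) had 9 peaks with 554 ChIP against 127 input reads, or a fold of 4.87 (4.01 to 5.95). Of these ChIP reads, 171 and 132 lay in a peak of 2971 bp and a peak of 2108 bp, and the other 7 peaks held 25 to 66 each. The domain chr11 c (chr11:118851134-118876302) had 8 peaks with 947 against 277 reads, a fold of 3.81 (3.33 to 4.38). Its last peak, 6542 bp wide, held 339 of these ChIP reads, and 4 of its gaps were 60 bp or shorter. In chr9 b (chr9:91158965-91185508), 8 peaks with 705 against 196 reads gave 4.01 (3.42 to 4.73). It fell into 2 groups of 4 peaks on either side of a gap of 6750 bp, where the fold was 1.44 (1.02 to 2.05).

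Another 7 domains held 7 peaks each, and the 2 of them with the most ChIP reads in peaks were chr3 b and chr6 a. In chr3 b (chr3:129189631-129217875) 839 against 196 reads gave 4.78 (4.08 to 5.61), and 3 peaks of 2828 to 4639 bp held 160 to 232 ChIP reads each. In chr6 a (chr6:6804985-6832896) 753 against 159 reads gave 5.28 (4.45 to 6.31). There, 4 peaks of 2507 to 4924 bp with 118 to 245 ChIP reads stood among 3 narrow ones of 21 to 29 reads.

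On chromosome 18, which carries the clustered protocadherin genes, there was 1 domain, chr18 a (chr18:37840615-37890323). Protocadherins are cell adhesion proteins of neurons; whether the domain overlaps their genes was not determined. Its 8 peaks were spread over 49.7 kb and covered 29.4% of it, with 662 ChIP against 216 input reads, or a fold of 3.42 (2.93 to 4.01). The peak with the most reads, 187 against 47, reached 4.44 (3.21 to 6.25), and it was the only one of the 8 at a fold of 4 or more. Its gaps, with 585 against 452 reads, had a fold of 1.44 (1.27 to 1.64), among the 5 lowest of the domains with at least 20 input reads in gaps.

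Domains differed in how far the peaks ran together. In 5 domains peaks covered 90% or more, and in 3 they covered under 40%. At the continuous end, chr17 a (chr17:85515785-85535389) was covered to 92.2%. It held the member peak with the highest authors' score (1775.36, the sixth of all 3445), 10466 bp wide with 487 ChIP against 104 input reads, or a fold of 5.22 (4.22 to 6.52). Its 4 other peaks lay within 952 bp of the neighbouring one and had folds of 2.82 to 6.02. Likewise chr5 d (chr5:120684684-120701883) was covered to 91.6%, with 752 against 191 reads, a fold of 4.39 (3.74 to 5.18), and no gap over 530 bp. At the open end, the 7 peaks of chr12 a (chr12:50249871-50278293) covered only 27.9% of 28.4 kb. They held 318 against 77 reads, a fold of 4.61 (3.58 to 5.99). Only one of them held over 60 ChIP reads.

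Of the 10 member peaks with the highest authors' score, each lay in a different domain. After chr17 a, the next were in chr4 a, chr9 a and chr19 d. The peak in chr4 a (chr4:22576661-22581598) held 280 ChIP against 53 input reads, or a fold of 5.89 (4.38 to 8.06). The one in chr9 a (chr9:74648432-74652278) held 262 against 57, a fold of 5.13 (3.84 to 6.96), and was the densest of these 4 at 68.1 ChIP reads per kb. In chr19 d (chr19:45202756-45208213) 283 against 58 reads gave 5.44 (4.09 to 7.35). This peak held 59.8% of the ChIP reads in the peaks of its domain, the largest such share of the 49. The other 6, in chr12 b, chr7 a, chr11 c, chr8 b, chr19 e and chr3 b, held 148 to 339 ChIP reads at folds of 4.11 to 9.71. The 5 largest folds at 20 or more ChIP reads were 9.30 to 11.4, in chr1 c, chr1 f, chr2 a, chr19 e and chr5 a. Apart from the chr19 e peak they rested on 2 to 6 input reads. The one in chr1 c, for instance, was 11.4 (4.57 to 36.5) from 51 against 5 reads. The one in chr1 f was 11.2 (2.71 to 98.4) from 20 against 2.

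Within domains, the strongest peak, by ChIP reads, held a median of 33.6% of the ChIP reads in peaks, and 50% or more in 4 domains. It was the first or last peak in 19 domains and an inner one in 30. The intervals of outer and inner peaks overlapped, with joint folds of 4.13 (3.94 to 4.32) over 98 peaks and 4.17 (4.04 to 4.31) over 203, and median widths of 1551 and 1557 bp.

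The fold passed 4 in 176 of the 301 member peaks (58.5%), against 40.6% of all 3445 deposited peaks. Nothing is read from this difference, since the same ChIP reads placed the peaks. All peaks of 6 domains and none of 2 domains were at a fold of 4 or more. Those 2 were chr1 b and chr1 d. Of the members, 112 (37.2%) were among the 861 peaks, of all 3445, with the highest authors' score. That share was 39.8% in peaks of the Hox windows, 33.4% in stretches of 2 to 4 and 18.3% in single peaks. Such a peak was held by 48 of the 49 domains, the exception being chr1 b. Nothing is read from these counts, since the score comes from the same peak calls and each domain holds several peaks. Only 4 member peaks had a fold below 2, namely 2 in chr4 b, 1 in chr1 d and the weak peak of chr7 a.

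Among the peak classes the median fold was highest in members and lowest in single peaks, with overlapping quartiles. It was 4.43 (quartiles 3.50 and 5.58) in members and 3.92 in the 118 peaks of the Hox windows, and 4.02 in the 983 peaks in stretches of 2 to 4 and 3.48 in the 2043 single peaks. Median widths were 1557, 1768, 1535 and 1353 bp in the same order. By joint fold, members at 4.16 (4.05 to 4.27) and peaks of the Hox windows at 4.13 (3.97 to 4.30) were alike. The joint fold was 3.77 (3.72 to 3.82) in stretches of 2 to 4 and 3.32 (3.28 to 3.35) in single peaks. Members made up 9.31% of the bases in peaks and 9.18% of the ChIP reads in peaks. These classes come from the same peak calls and were not tested against each other.

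**Figure D3:**
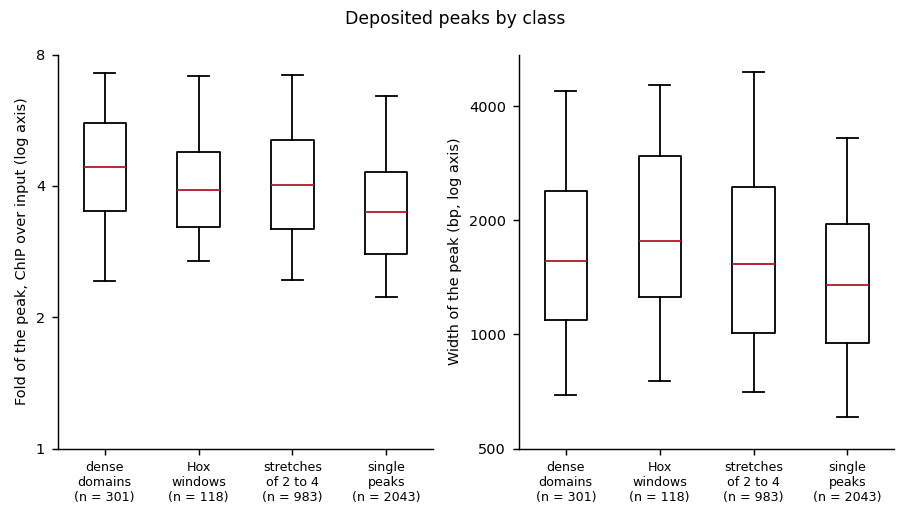
Fold over input (left) and width (right) of all deposited peaks in 4 classes, on log axes. Boxes give the quartiles with the median as a line, and whiskers the 5th and 95th percentiles. Members of dense domains have a median fold of 4.43 and single peaks 3.48, with broadly overlapping boxes.

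The DNA between the peaks was enriched in most domains. The gap fold ranged from 1.09 to 4.83 (median 2.22), or from 1.09 to 3.03 in the 39 domains with at least 20 input reads in gaps. Its interval lay above 1 in 45 of the 49 domains, against 51.1% of all 458 stretches of 2 or more peaks. Those stretches held a median of 13 input reads in gaps and the dense domains 68, so intervals were wider in the former. Nothing is read from this comparison, since the gaps belong to the contrast that chose the members. The gap fold was below that of the peaks in 48 domains. The exception was chr11 d, where the gaps held only 13 ChIP and 3 input reads. Peaks were called on the same ChIP reads and gaps are what the calls left out. This order was therefore largely set by the peak calls, and nothing is read from it.

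The highest gap folds with at least 20 input reads were in chr5 e, chr4 c, chr7 a, chr11 c and chr1 c. In chr5 e (chr5:139792460-139812150) the gaps held 95 ChIP against 35 input reads, or a fold of 3.03 (2.04 to 4.60), and the peaks had 5.18 (4.33 to 6.22). The gaps of chr4 c (chr4:114398918-114411764) held 78 against 29, a fold of 3.00 (1.94 to 4.77). Those of chr11 c had 140 against 58 reads, a fold of 2.69 (1.97 to 3.72), and those of chr1 c (chr1:78072456-78087358) had 96 against 41, a fold of 2.61 (1.79 to 3.86). The intervals of these 5 domains overlapped.

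The lowest gap folds, again with at least 20 input reads in gaps, were in chr1 b, chr11 a, chr5 c, chr18 a and chr4 b. In chr1 b (chr1:74716747-74737680) the gaps held 180 ChIP against 185 input reads, or a fold of 1.09 (0.879 to 1.34), and its peaks had only 2.94 (2.39 to 3.64). In chr11 a (chr11:18913413-18927668) 79 against 67 gave 1.32 (0.938 to 1.85). In chr5 c (chr5:101887509-101908935) the gaps were at 1.44 (1.10 to 1.88) beside peaks at 5.36 (4.39 to 6.59). There a single gap of 8581 bp, at 1.26 (0.944 to 1.68), set apart 1 peak from the other 4. The gaps of chr4 b had 1.66 (1.43 to 1.92). Besides chr1 b and chr11 a, the gap interval also reached 1 in chr1 d, at 1.37 (0.619 to 3.10), and in chr13 b, at 1.89 (0.910 to 4.08), with 13 input reads in gaps each.

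Most gaps were short: of the 252, 106 were under 500 bp, and the median was 762.5 bp. The fold was lowest in the longest gaps. It was 2.29 (1.88 to 2.80) in gaps under 500 bp, 2.62 (2.27 to 3.03) at 500 to 1000 bp, 2.20 (1.99 to 2.44) at 1000 to 2000 bp, then 2.06 (1.93 to 2.21) at 2000 to 5000 bp. In the 24 gaps of 5000 bp or more it was 1.72 (1.61 to 1.83). By distance from the nearest peak, gap DNA had a fold of 2.22 (2.08 to 2.36) within 0.5 kb. At 1 to 2 kb it was 1.90 (1.75 to 2.05), and at 2 to 5 kb 1.46 (1.33 to 1.60).

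Outside the outer peaks the fold was lower beyond the first kilobase. It was 2.11 (1.88 to 2.37) within 0.5 kb and 1.77 (1.59 to 1.97) at 0.5 to 1 kb. At 1 to 2 kb it was 1.35 (1.24 to 1.46), at 2 to 5 kb 1.25 (1.19 to 1.31) and at 5 to 10 kb 1.12 (1.07 to 1.16). By 10 to 20 kb it was 1.02 (0.993 to 1.06). At 1 to 2 kb the intervals for gap DNA, which has a peak on both sides, and for outside DNA did not overlap. This was not particular to the domains. It also held in stretches of 2 to 4 peaks, with gap DNA at 1.69 (1.61 to 1.77) at that distance. In the Hox windows, gap DNA was at 2.10 (1.89 to 2.33), and its interval overlapped that of outside DNA. Around single peaks the fold was 1.60 (1.57 to 1.62) within 0.5 kb and 1.22 (1.21 to 1.24) at 1 to 2 kb. Outside stretches of 2 to 4 peaks it was 1.77 (1.70 to 1.83) and 1.38 (1.34 to 1.42). Next to peaks of the Hox windows it was 1.77 (1.42 to 2.23) and 1.69 (1.43 to 2.01). For comparison, gaps within stretches of 2 to 4 peaks had a joint fold of 1.84 (1.80 to 1.89), and gaps within the Hox windows 2.06 (1.95 to 2.17).

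**Figure D4:**
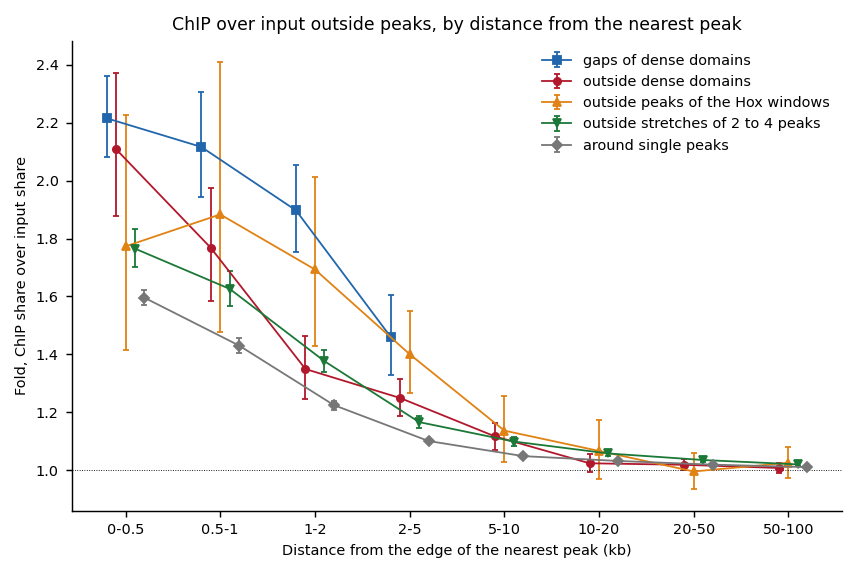
Fold of ChIP over input in DNA outside peaks, by distance from the edge of the nearest peak in kb, with exact 95% intervals. Gaps of dense domains fall from 2.22 to 1.46 over 5 kb, and DNA outside the domains falls from 2.11 to 1.02 at 10 to 20 kb.

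Input reads were not used by the rule, unless the authors called peaks with the input as control, on which the sources used here are silent. Input in each stretch, peaks and gaps together, was tested against the 50 kb on each side outside peaks. The test was a conditional binomial test, exact and two-sided, adjusted by Benjamini-Hochberg over all 2502 stretches, and a stretch was called at a ratio of at least 1.5. Of the 49 domains 2 were called (4.08%), against 4.64% of all stretches, a share near the background. Input in the domains was otherwise close to the level around them, with a median ratio of 0.990 and quartiles of 0.926 and 1.14. The test compares regions of 1 library.

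Those 2 domains were chr1 d (chr1:172900216-172922948) and chr4 b. In chr1 d, 710 input reads lay in 22.7 kb, or 31.2 per kb. This was 2.79 times the flanks (adjusted p = 1.71e-88, exact binomial test) and 3.47 times the median of the chromosome. Its 5 peaks covered 94.1% of it with 1318 ChIP against 697 input reads, or a fold of 2.11 (1.92 to 2.32), the lowest of all domains. Each of the 5 peaks lay between 1.80 and 2.24. In chr4 b the input was 1.75 times the flanks (adjusted p = 4.66e-29, exact binomial test) and 1.84 times the chromosome median. A further 3 domains passed the adjusted p with ratios below 1.5. Their ratios were 1.22 in chr1 b, 1.24 in chr9 b and 0.771 in chr5 e, with adjusted p of 0.0461, 0.0481 and 0.0216 by the same exact test. After chr1 d, chr4 b and chr1 b, the next lowest peak folds were those of chr18 a and chr14 a. Their input was 1.49 and 1.36 times the chromosome median, but 1.13 and 0.968 times their flanks, and neither was called. Input stands in the denominator of the fold, so its level and the fold are not independent, and its part in the low folds was not tested.

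**Figure D5:**
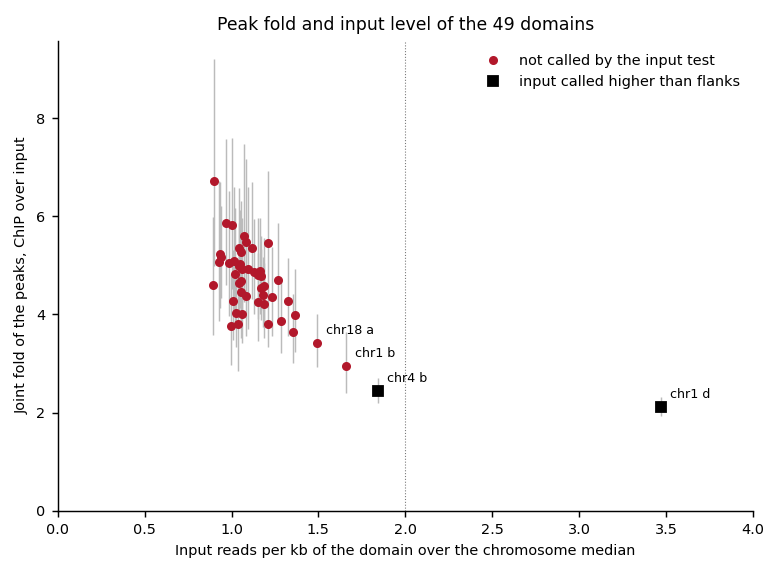
Joint fold of the peaks of each domain, with exact 95% intervals, against input reads per kb of the domain divided by the median of its chromosome. The dotted line marks 2 times the median. The 2 squares, chr4 b and chr1 d, are the domains called by the input test, at folds of 2.44 and 2.11.

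Strand balance was the other measure that the rule did not use. The share of ChIP reads on the plus strand was 45.5% to 59.4% in the domains (median 50.4%), and it was below the share of the same chromosome outside peaks in 45 of 49. How often this held over all stretches is not given here, so the count is not read as a trait of the domains. An exact two-sided binomial test with the same adjustment over 2502 stretches called 8 domains (16.3%), all of them lower. In either direction it called 68 of all stretches (2.72%), of which 46 were lower. The domains held a median of 618 ChIP reads and all stretches 63, so the test reached the threshold at smaller differences in domains. The lowest share was 45.5% in chr19 b (chr19:37751606-37764957), against 53.1% for its chromosome (adjusted p = 0.0394, exact binomial test). In chr4 a (chr4:22568543-22590249) the share was 46.2% against 54.3% (adjusted p = 0.00132, exact binomial test). The other 6 were chr1 b, chr1 d, chr4 b, chr5 c, chr7 a and chr14 a, at 46.2% to 50.3%. The plus share of input reads was below this chromosome share, which is that of the ChIP library, in 44 of the 49 domains. Over all distinct reads the plus share was 53.8% in the input and 54.7% in the ChIP library. The input was not set against its own chromosome share here, and the same count over all stretches is not given. The 44 domains are therefore not read as a trait of the domains. With the input of the same stretch as reference in place of the chromosome, Fisher's exact test called 0 domains. It also called 0 of all 2502 stretches, so nothing about the domains is read from it. At an unadjusted p under 0.05 that exact test gave 2 domains, against 3.68% of all stretches. By the test against the chromosome there were 25, against 14.1% of all stretches, with the same gap in read number.

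Domains were unevenly spread over the chromosomes. Chromosomes 1 and 19 held 6 each and chromosome 5 held 5, while chromosomes 10, 15, 16, X and Y held none outside the Hox windows. On chromosome 19, 35 of 122 peaks (28.7%) were members, the largest share of any chromosome, and chromosome 1 followed with 32 of 230 (13.9%). Some domains were neighbours. The domains chr11 c and chr11 d (chr11:118896624-118906991) lay 20.3 kb apart, with folds of 3.81 and 4.28 (3.47 to 5.32). Next came chr4 c and chr4 d, 138.4 kb apart with folds of 4.69 (3.73 to 5.95) and 5.83. The pair chr19 e and chr19 f was 277.9 kb apart, and chr19 c and chr19 d (chr19:45196501-45214356) 381.1 kb. Each of these pairs had overlapping intervals. The cut domain chr11 b ended 4.35 kb before the Hox window on chromosome 11. Its 3 peaks held 211 ChIP against 62 input reads, or a fold of 3.80 (2.85 to 5.12).

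At the edges of the rule, stretches of 5 and of 4 peaks stood as follows. The 25 stretches of 5 peaks outside the Hox windows had a median fold of 4.88 and the 50 stretches of 4 peaks 4.39. Their peaks had joint folds of 4.16 (4.0 to 4.33) and 3.44 (3.35 to 3.53), and their gaps of 1.91 (1.79 to 2.04) and 2.05 (1.95 to 2.15). A joint fold weighs each stretch by its reads, and stretches of raised input were kept here. Folds of individual stretches ran from 2.11 to 6.72 with 5 peaks and from 1.95 to 6.85 with 4. The difference in joint folds is therefore not read as a step at the edge of the rule. The joint fold of peaks did not fall steadily below the edge. It was 4.36 (4.24 to 4.48) in the 83 stretches of 3 peaks and 3.68 (3.61 to 3.74) in the 267 of 2 peaks. The longest gaps inside a domain were 9.79 kb in chr5 b and 8.86 kb in chr4 b. Just outside, the nearest peaks of another stretch lay 10.7 kb from chr1 b and from chr4 c. In 9 domains a peak of another stretch lay within 20 kb, and the median distance to such a peak was 104.8 kb. The peaks of chr11 b's own stretch inside the Hox window are not counted here.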

How the data were processed

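Reads of 1 PHF19 ChIP and 1 input library were analysed with 1 deposited peak list. The authors deposited aligned reads as intervals of 42 bases; the submitters' processing notes name Bowtie and mm8. Peaks are MACS output per the file headers, and their score is the authors' deposited score, used only to rank peaks. Caller settings, the use of input as control and the treatment of multiply matching reads are not stated in these sources.

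Reads at the same 5′ end and strand were kept once (8.38% of ChIP and 7.33% of input reads removed), and 5′ ends were moved inwards by 54 bp, from the input's strand lag of 108 bp. The ChIP lag of 41 bp, near the read length, was not used. An input count of 0 was replaced by 3. Chromosome medians are over 1 kb bins with an input read. Intervals and floors cover counting error only, since amplified reads are not independent molecules.

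Domains were named by extremes of peak number, span, fold, gap fold, input and strand. Peaks were named by score and fold. Domains chr5 d, chr11 b, chr11 d and chr13 b, and single peaks or gaps within domains, were named after their values were seen. The members and lists were chosen with earlier results of these data known. Both tests were run across all stretches and tested on simulated data. Tests used scipy 1.17.1 under Python 3.11.15, tables pandas 2.3.3 with numpy 2.4.6, and plots matplotlib 3.10.9.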

Additional observations from a re-analysis of the deposited data

How the results depend on the processing

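Alternatives covered duplicates, shift, scaling, joining distance, number of peaks, score, gap edges, flanks and thresholds. Of 59 values under an alternative, 39 stayed within the counting interval (folds) or within 1.5 times (counts), 20 moved, and none changed direction. Leaving out the cut domain or domains of raised input against chromosome or flanks was chosen after seeing the data. The joint peak fold of 4.16 was 3.78 with stretches of at least 4 peaks, 4.71 with only peaks above the median score, joined anew, 4.38 without chr1 d and 4.56 without chr1 d and chr4 b. The joint gap fold of 1.98 was 2.16 with gaps of at most 5 kb, 1.82 at 20 kb and 2.57 with peaks above the median score. It was 1.85 without the 500 bp next to each peak and 1.72 without 1000 bp. In that last setting the gap interval lay above 1 in 23 domains, of 34 with any gap left, in place of 45. The 49 domains and 301 peaks became 99 and 501 with at least 4 peaks, 24 and 176 with at least 6, and 11 and 63 with peaks above the median score, which follows from the construction of these sets. Member peaks at a fold of 4 numbered 176. At a fold of 2 there were 297, and 25 had an interval wholly above 4. Domains of raised input numbered 1 at a ratio of 2. Domains with a skewed strand numbered 0 against the input, where 0 of all stretches were called. No paired analysis was possible because each group has 1 library. Depth limits single peaks and single gaps: in 93 of the 301 peaks the interval includes a fold of 2, and in 0 a fold of 1.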
